A study of Mus musculus with 21 samples.

Results

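The cytosolic ribosomal protein genes were followed here in the left ventricle of mice with a banded aorta, with and without stimulation of the vagus nerve. They were chosen by name alone, as every gene whose symbol is Rpl, Rps or Rplp with a number and at most 1 further letter, and 79 of the 22136 genes in the deposited table met that rule. Of these, 75 reached at least 1 CPM (counts per 1000000 counts) in at least 3 of the 21 libraries and were tested. Rpl10l, Rpl13a, Rpl39l and Rps10 did not. Filters took CPM on the unscaled library total, and levels given as CPM are on the TMM-scaled library.

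All animals were male C57BL/6 wild type mice, operated on at 8 weeks of age, and their hearts were taken 8 weeks after surgery. Stimulated mice had banding of the ascending aorta, so that the heart pumps against a narrowed outlet, and a biodegradable nanogenerator with a cuff on the left cervical vagus nerve that gave low-level stimulation (4 µA, 2 Hz). The groups VNS20_1w, VNS20_2w and VNS20_4w had 20 min a day from week 1, 2 or 4 after surgery, for 7, 6 or 4 weeks, and VNS10_1w had 10 min a day from week 1 for 7 weeks. AB_Implant mice had banding and the device without stimulation, AB mice had banding only, and Sham mice had the operation without ligation. Each group held 3 biological replicates, so a test rests on 12 stimulated, 6 unstimulated banded and 3 Sham hearts; no group had the implant without banding.

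Cytosolic ribosomes are built from a small and a large subunit, and nearly every ribosomal protein is present in 1 copy per ribosome. The transcripts of the family tend to keep near-constant proportions to each other, though not equal levels. Most of these transcripts begin with a terminal oligopyrimidine (TOP) tract, a C followed by a run of C and T, through which the protein LARP1 and the kinase mTORC1 control their translation. In the growing heart muscle cell, pressure load is known to raise the number of ribosomes. Rpl3l is a paralog of Rpl3 that is made almost only in heart and skeletal muscle.

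The TOP tract is shown for members of both subunits because it is the sequence feature the family is known for. Each window of 30 bases comes from RefSeq (GRCm38.p6), begins 15 bases before the annotated start and is printed on the strand of the gene, with the tract in capitals. Rpl3l, the muscle paralog, is set below them and has no such tract at its annotated start.
Rps6 (chr4:86857353-86857382, minus strand): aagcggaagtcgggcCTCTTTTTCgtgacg
Rps18 (chr17:33955651-33955680, minus strand): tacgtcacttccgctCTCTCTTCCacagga
Rps27 (chr3:90213634-90213663, minus strand): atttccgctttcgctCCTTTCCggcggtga
Rpl15 (chr14:18270972-18271001, minus strand): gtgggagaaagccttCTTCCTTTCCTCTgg
Rpl35 (chr2:39005117-39005146, minus strand): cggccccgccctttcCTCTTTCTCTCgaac
Rpl14 (chr9:120571502-120571531, plus strand): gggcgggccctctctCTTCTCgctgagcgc
Rpl3l (chr17:24727811-24727840, plus strand): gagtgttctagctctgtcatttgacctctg

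RefSeq starts were matched for 59 of the 79 members, with 71 starts in all. A C followed by at least 4 bases that are C or T stood exactly at the start in 13 of the 71 (18.3%), against 2.51% of all 32851 annotated mouse starts. Within 5 bases of the start the shares were 42.3% and 18.3%. The letters CCGGAAG were sought on either strand, from 250 bases before to 50 after the start. They were found at 35.2% of member starts and 8.86% of all starts. TATAAA, sought on the gene strand only in the 250 bases before the start, was found at 1.41% and 7.59%. These are matches of letters, each sought in the same window at member starts and at all starts. An annotated start can lie some bases away from the used one.

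The family is spread over 19 chromosomes and consists of 29 small subunit proteins, 43 large subunit proteins outside the stalk, the 3 stalk proteins Rplp0, Rplp1 and Rplp2, and the 4 paralogs Rpl3l, Rpl10l, Rpl39l and Rps27l. Their main transcripts are short, with a median of 860 bases (75 tested members, 345 to 5179), against 3007 bases for the 12025 other tested genes. GC content is close, with a median of 51.8% in members and 50.6% in other genes. Small nucleolar RNA genes guide chemical marking of ribosomal RNA. On the same strand, 28 of the 79 members (35.4%) have such a gene between their start and end, against 1.63% of other tested genes. Introns and exons were not told apart in this count.

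Each library held 11577509 to 19414865 counts, of which 34.4% to 55.3% fell on mitochondrially encoded genes. The labelled tissue was matched by its markers, since the 12 cardiomyocyte markers summed to 52554 to 93399 CPM over all libraries and every one of them was tested. Members took 1.32% to 2.23% of all counts and 2.19% to 4.52% of the counts outside the mitochondrial genes. Because the tissue is bulk, fewer cells of a type and less RNA per cell cannot be told apart.

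Levels inside the family spanned a wide range. On the scale of CPM per kilobase of main transcript, averaged over the 21 libraries, Rps15 stood at 1004, Rps2 at 733 and Rpl41 at 688, among the highest levels, while the median member was at 280. Rps15 and Rps2 belong to the small subunit, and Rpl41 is the smallest ribosomal protein, with 75 coding bases. The lowest levels per kilobase were those of Rpl21 at 20.5, Rps15a at 36.7, Rps20 at 41.7 and Rpl17 at 47.4. For Rps15a and Rps20 the annotated main transcript is 5179 and 3706 bases long; per kilobase of coding sequence they ranked 41 and 50 of 75, whereas Rpl21 was again the lowest at 79.2. The stalk proteins, which recruit elongation factors, differed too, with 528 for Rplp0, 660 for Rplp1 and 199 for Rplp2 in CPM per kilobase. Rpl5 and Rpl11, which with 5S ribosomal RNA form the particle that can bind Mdm2, had 158 and 322, Rps6, the substrate of S6 kinase, 392, Rps14, a small subunit protein, 500 and Rps4x, the X-linked form of a small subunit protein, 369 in CPM per kilobase.

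The members moved together from library to library. The common level, defined as the mean over the 75 tested members of log2 CPM centred on each gene's mean, ran from -1.02 in VNS20_1w replicate 2 to 0.69 in VNS20_2w replicate 2. Small and large subunit genes followed each other with a Pearson correlation of 0.998 over 21 libraries, and their difference stayed between -0.08 and 0.08 on the log2 scale. Against the mean of the other members, 53 of 75 genes had a correlation over 0.95 and 66 over 0.9, with a median of 0.97. The closest were Rps20, Rps3 and Rps18, whose correlations lay between 0.994 and 0.997; the farthest were Rpl7a at 0.57, Rpl3l at 0.60 and Rpl21 at 0.77. All points share the library and its depth, so these correlations describe the libraries and carry no test.

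The common level followed the transcript-length slope of the library closely. The slope was fitted in each library over the tested genes outside the family, as the change of centred log2 CPM per doubling of transcript length, and it ran from -0.37 in VNS20_4w replicate 1 to 0.54 in VNS20_2w replicate 1. Over the 21 libraries the correlation of the common level with it was -0.98 (Spearman -0.96). It was -0.97 without VNS20_2w replicate 1 and VNS20_1w replicate 2, which lay farthest from the median slope, and -0.99 for deviations from group means, that is, among hearts of the same group. Libraries with relatively more counts on long transcripts had less of the family, and those with more on short transcripts had more of it, also among hearts of 1 group.

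**Figure D1:**
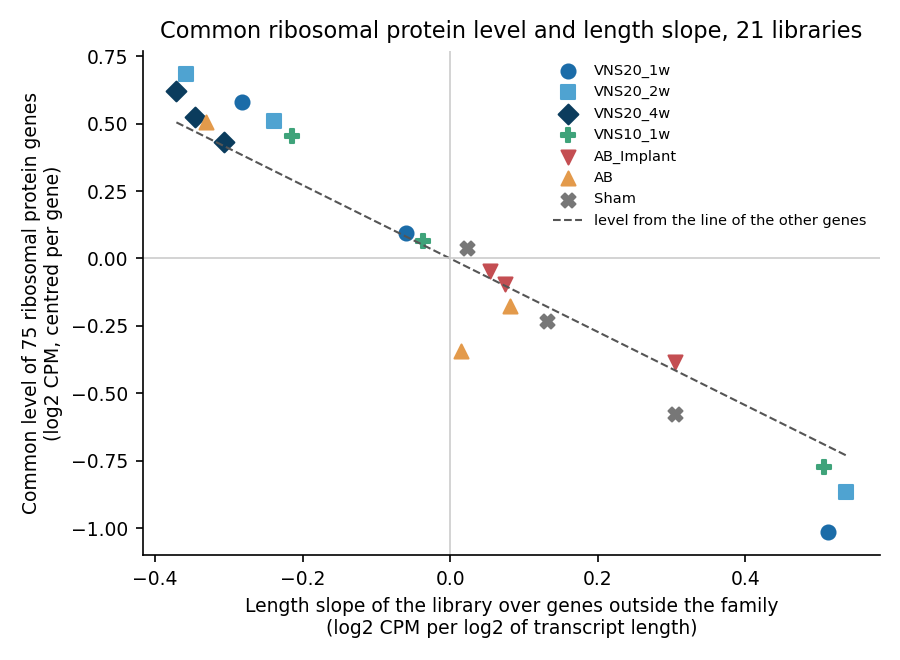
Common level of the 75 tested ribosomal protein genes (log2 CPM centred per gene) against the length slope of genes outside the family, 1 point per library, coloured by group; the dashed line gives the level that the other genes' slope assigns to members' lengths. The points run from 0.69 at a slope of -0.36 to -1.02 at a slope of 0.51, and AB replicate 1, at a slope of 0.01, has a level of -0.34.

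Taking away what the line of the other genes gives at the members' own lengths left little. The spread of the common level over 21 libraries, as SD, was 0.52 on the log2 scale before and 0.14 after. The remainder ran from -0.30 to 0.22 and was still tied to the slope (r = -0.72, and -0.81 with GC content in the line as well), so a straight line on length does not take up all of the shared movement. The common level also moved with the share of counts on mitochondrial genes (r = 0.80), and hardly with total counts (r = -0.26).

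Each of the 75 members had a negative slope response, the change in its log2 CPM per unit of slope. The responses ran from -2.69 for Rps27a, which encodes a ribosomal protein fused to ubiquitin, to -0.97 for Rpl4, with a median of -1.69. Among the other 12025 genes the median was 0.04, and 4.54% were at or below the members' median. Within the family the response followed coding length better than transcript length (Spearman 0.53 and 0.43 across genes, which are not independent replicates). It was also related to mean CPM (Spearman 0.28) and to GC content (Spearman -0.30). Rpl41, with 75 coding bases, had a response of -2.49, and the long Rpl3 and Rpl3l, with 1209 and 1221 coding bases, had -1.26 and -1.07.

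**Figure D2:**
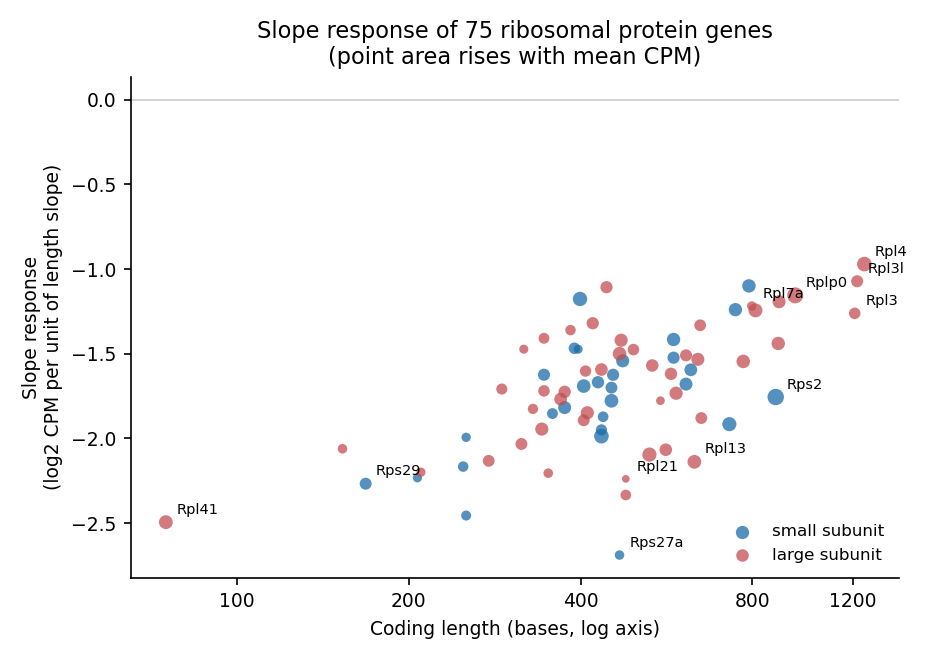
Slope response of each of the 75 tested members (log2 CPM per unit of length slope) against coding length on a log axis, small subunit in blue and large subunit in red, with the point area rising with mean CPM. Every point lies below 0, from -0.97 for Rpl4 to -2.69 for Rps27a.

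By group, the common level had its smallest SD in VNS20_4w, at 0.10. Its 3 libraries had 0.62, 0.52 and 0.43, against -0.09, -0.05 and -0.39 in AB_Implant, so the groups did not overlap. In VNS20_1w the values were 0.10, -1.02 and 0.58, in VNS20_2w -0.87, 0.69 and 0.51, and in VNS10_1w 0.45, -0.77 and 0.07. Each of these 3 groups therefore held 1 library near the bottom of the whole range beside others above AB_Implant. AB had -0.34, 0.51 and -0.18, and Sham had -0.58, 0.04 and -0.23. Differences between groups made up 22.3% of the variance of the common level and 29.5% of that of the slope.

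After subtraction of the length line the groups overlapped widely. VNS20_4w averaged 0.06 ± 0.07 and AB_Implant 0.01 ± 0.01, while VNS20_1w averaged -0.04 ± 0.26, VNS20_2w 0.08 ± 0.19 and VNS10_1w 0.03 ± 0.13 (log2, SD, n = 3 each). AB averaged -0.11 ± 0.18 and Sham -0.04 ± 0.10. The gap between VNS20_4w and AB_Implant, which is the widest of the compared pairs in the common level, was within the spread of the VNS20_4w hearts on this scale.

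**Figure D3:**
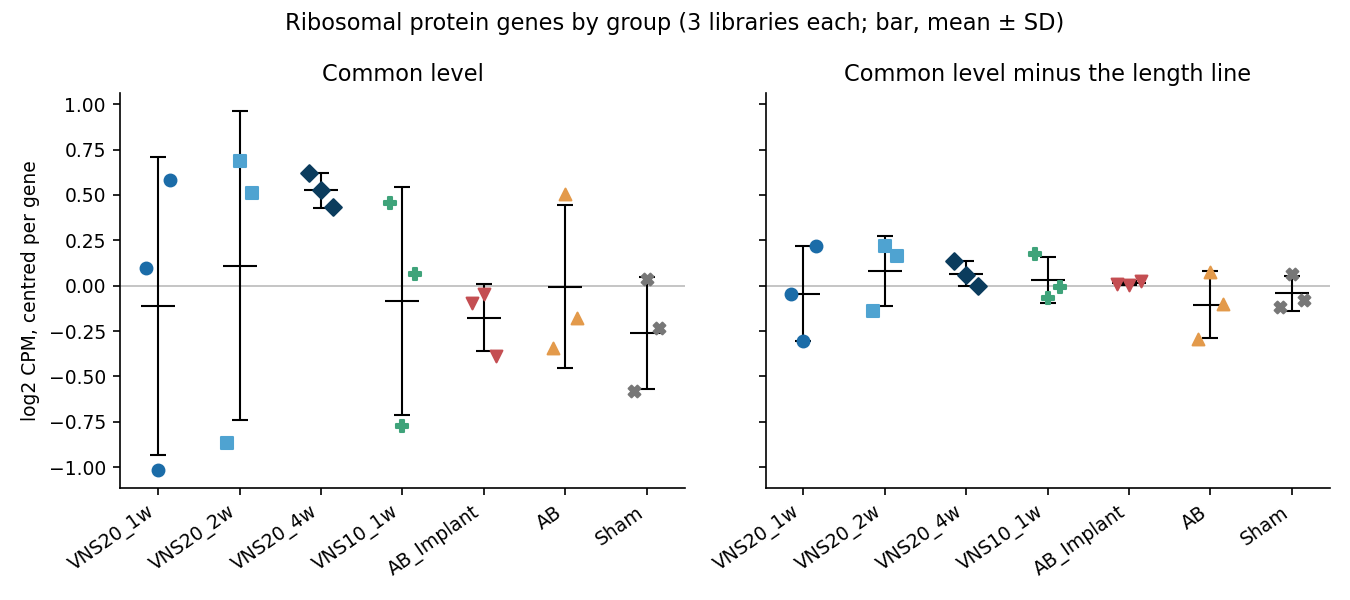
Left, the common level of the 75 members in each library by group; right, the same after subtracting the level given by the length line of the other genes (both log2 CPM, centred per gene; bars, mean ± SD of 3 libraries). The VNS20_4w points sit at 0.43 to 0.62 on the left and at -0.002 to 0.136 on the right, where the groups overlap.

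No member was called in any of the 9 tests of the design, by edgeR's quasi-likelihood test with Benjamini-Hochberg adjustment over 12100 genes at an adjusted p under 0.05. The share of all genes called was 0.463% for VNS20_1w, 0.174% for VNS20_2w, 0.322% for VNS20_4w and 0.157% for VNS10_1w, each against AB_Implant. It was 0.438% for all stimulated against unstimulated banded hearts, 0% for AB_Implant against AB, 0.281% for AB_Implant against Sham, 0% for AB against Sham and 0.537% for the F test over 7 groups. With shares this low, a count of 0 among 75 genes is near the background and is no result about the family. DESeq2 also called 0 members, and its share of all genes called was 1.57% for VNS20_1w, 0.645% for VNS20_2w, 3.81% for VNS20_4w and 0.752% for VNS10_1w against AB_Implant. The DESeq2 share was 0.686% for stimulated against unstimulated banded hearts, 0.562% for AB_Implant against AB, 1.95% for AB_Implant against Sham, 0.0909% for AB against Sham and 4.47% for the test over 7 groups.

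At an unadjusted p under 0.05 there were 9 of 75 members in VNS20_4w against AB_Implant (26.3% of all genes). There was 1, Rpl3l each time, in VNS20_2w against AB_Implant (5.1%), AB_Implant against AB (9.08%) and AB_Implant against Sham (9.64%). There were 0 in VNS20_1w (8.77%) and VNS10_1w (6.68%) against AB_Implant, in stimulated against unstimulated banded hearts (5%), in AB against Sham (4.99%) and in the F test (10.6%). In each of these tests the share among members was below that among all genes.

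Rpl3l had the smallest p of the family in 6 of the 9 tests. The next after it were Rps28 in VNS20_4w and VNS20_2w, Rpl13 in VNS20_1w (-0.81 ± 0.48 SE, edgeR adjusted p = 0.71) and Rpl7a in VNS10_1w (-0.63 ± 0.41 SE), all against AB_Implant. In AB_Implant the next were Rpl29 against AB (-0.68 ± 0.52 SE) and Rpl21 against Sham (1.03 ± 0.67 SE). Rpl30 led the test of stimulated against unstimulated banded hearts (log2 fold change 0.46 ± 0.26 SE, edgeR adjusted p = 0.986), and Rpl21 and Rps26 that of AB against Sham (1.02 ± 0.67 and 0.52 ± 0.36 SE). Rpl13 and Rpl7a had the smallest p in the F test (edgeR adjusted p = 0.576 for both).

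Against AB_Implant, the median log2 fold change of the 75 members was 0.70 in VNS20_4w, 0.42 in VNS20_2w, 0.24 in VNS20_1w and 0.17 in VNS10_1w, and that of all 12100 genes lay between -0.02 and 0.05. For stimulated against unstimulated banded hearts it was 0.28, for AB_Implant against AB -0.21, for AB_Implant against Sham 0.07 and for AB against Sham 0.28. The sign of 5 of these medians turned on 1 library: it became -0.16 in VNS20_1w without its replicate 3, -0.11 in VNS10_1w without its replicate 1, -0.05 in AB_Implant against Sham without Sham replicate 1, and -0.01 in AB against Sham and 0.06 in AB_Implant against AB without AB replicate 2. In VNS20_2w it ranged from 0.16 to 0.76 and in VNS20_4w from 0.58 to 0.76 whichever library was left out.

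In VNS20_4w, 72 of 75 members were higher in all 3 hearts than in every AB_Implant heart, against 23.2% of all genes, and 0 were lower in all 3 (25.6%). The 3 others were Rpl3, Rpl7a and Rpl21. Rps28, a small subunit protein, had 134, 109 and 105 CPM in VNS20_4w and 53.4, 65.8 and 42.3 CPM in AB_Implant (log2 fold change 1.1 ± 0.49 SE, edgeR adjusted p = 0.176). Rps6 averaged 426 ± 3.35 CPM in VNS20_4w and 302 ± 32.1 CPM in AB_Implant (SD, n = 3 each; 0.50 ± 0.31 SE, edgeR adjusted p = 0.270). The length slopes of the same hearts were -0.37, -0.35 and -0.31 in VNS20_4w and 0.07, 0.05 and 0.31 in AB_Implant, so the slopes of these 2 groups did not overlap, just as the levels did not. With the slope as a covariate the median of the family turned to -0.17, with 5 of 75 members on the positive side. Because the slopes of the 2 groups did not overlap, such a fit cannot tell the group from the slope. In the other contrasts few members separated the groups: Rpl10, Rpl10a and Rps26 were higher in every AB than every Sham heart (6.77% of all genes, and 0 members against 6.99% lower), Rps26 was lower in every AB_Implant than every AB heart (7.99%, and 0 against 9.11% higher), and Rpl13 was lower in every VNS20_1w than every AB_Implant heart (6.67%, and 0 against 5.76% higher). Rpl10, Rpl10a and Rps26 are named here because their values separated.

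Some marker lists of cell types also differed in this contrast. Of 12 tested liver markers out of 13 listed, 9 were called higher in VNS20_4w, among them Alb, the albumin gene (edgeR adjusted p = 2.68e-05). The list summed to 95.8 to 135 CPM there, against 3.44 to 4.59 CPM in AB_Implant. It summed to 46.4 to 84.2 CPM in VNS20_1w, 43.0 to 109 CPM in VNS20_2w and 24.3 to 91.8 CPM in VNS10_1w, and to 3.70 to 11.04 CPM in AB and 2.51 to 4.71 CPM in Sham. None of the listed liver markers was at 0 in every library. The red blood cell markers, 5 tested of 6, summed to 1011 to 1467 CPM in VNS20_4w and 357 to 741 CPM in AB_Implant, with 0 called. The 9 macrophage markers summed to 299 to 339 CPM in VNS20_4w and 199.5 to 300.3 CPM in AB_Implant, with 8 of 9 fold changes positive, a median of 0.49 and 0 called. The 12 cardiomyocyte markers summed to 79335 to 84720 CPM in VNS20_4w and 52554 to 68897 CPM in AB_Implant, with 8 of 12 positive, a median of 0.41 and 0 called. The 10 endothelial markers summed to 1256 to 1631 CPM in VNS20_4w and 903 to 1074 CPM in AB_Implant. Of their fold changes 6 of 10 were positive, with a median of 0.26. The 9 fibroblast markers overlapped, with 898 to 1495 CPM in VNS20_4w and 694 to 1543 CPM in AB_Implant, and a median of 0.03. The median was 0.25 for the 8 smooth muscle and pericyte markers (5 positive) and 0.44 for the 5 tested neutrophil markers (3 positive). None of these 3 lists had a gene called, and no listed lymphocyte or adipose marker was tested. With the slope as a covariate the medians of this contrast were -0.11 for macrophage, 0.07 for cardiomyocyte and 0.14 for endothelial markers. They were 0.32 for red blood cell markers (1.17 without it) and 7.18 for liver markers (7.79 without it). For fibroblast, smooth muscle and neutrophil markers they were -0.29, 0.29 and 0.57. Over all 21 libraries the mean centred log2 level of each list was correlated with the common level. The correlation was 0.73 for the red blood cell list, 0.69 for the cardiomyocyte list, 0.65 for the macrophage list, 0.40 for the liver list and 0.18 for the endothelial list. For the summed CPM it was 0.74, 0.83, 0.72, 0.52 and 0.80 in the same order. The fibroblast, neutrophil and smooth muscle lists followed the family little, with 0.27, 0.13 and -0.002 for the mean level. Their summed CPM had 0.40, 0.03 and 0.09. The part of any of them in the level of the family was not tested.

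Leaving out the 3 libraries of steepest slope moved 3 contrasts and the F test to calls in a large share of the family. These are VNS20_2w replicate 1, VNS20_1w replicate 2 and VNS10_1w replicate 2, with slopes of 0.54, 0.51 and 0.51; since the slope follows the family's own level, this selects hearts by nearly the quantity compared, and the outcome is a description of how the result hangs on them. Without them, the 9 remaining stimulated libraries had slopes of -0.37 to -0.04. In stimulated against unstimulated banded hearts 59 of 75 members were then called higher by edgeR (9.02% of 11784 genes were called higher), with a median log2 fold change of 0.54. In VNS20_4w against AB_Implant 56 were called higher (16.5% of genes) and in VNS20_2w against AB_Implant 41 (8.1%), and the F test called 31 (20.3% called in any direction). None was called in VNS20_1w (1.58%) or VNS10_1w (0.373%) against AB_Implant, AB_Implant against AB (0.314%), AB_Implant against Sham (1.32%) or AB against Sham (0.0255%).

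With the slope as a covariate in the same 18 libraries, 0 of 75 members were called in the same 3 contrasts, where 0.153%, 0.0255% and 0.0339% of all genes were. The median fold changes of the family were then 0.04 for stimulated against unstimulated banded hearts, -0.20 for VNS20_4w and -0.07 for VNS20_2w. Over all 21 libraries the slope had r = -0.98 with the common level, so the covariate takes away most of the family's own movement. These counts and medians were therefore nearly fixed in advance and do not tell what moved the family. In the same fit Rpl13 was called lower in VNS20_1w against AB_Implant (0.161% of genes) and called by the F test (0.849%), and 0 members were called in VNS10_1w against AB_Implant (0.0594%), AB_Implant against AB (0%), AB_Implant against Sham (3.9%) and AB against Sham (0%). In the fit without a covariate, 0 members were called in each of the 21 fits that left out 1 library.

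With the slope as a covariate over all 21 libraries, Rps2 and Rpl13 were the members called in VNS20_1w against AB_Implant, and their number is below the share of all genes called. Rps2 lies at the mRNA entrance of the small subunit and Rpl13 in the large subunit. In VNS20_1w against AB_Implant both were called lower, Rpl13 with a log2 fold change of -1.20 ± 0.13 (SE, edgeR adjusted p = 2.48e-05) and Rps2 with -0.75 ± 0.12 (edgeR adjusted p = 0.00085), 2 of 75 members against 4.02% of all genes, so the count is no result about the family and the values of the 2 genes are given as such. Both were also called lower in stimulated against unstimulated banded hearts (-0.43, adjusted p = 0.00587, and -0.30, adjusted p = 0.0463, edgeR; 1.04% of genes) and called by the F test (4.07%). No member was called with the covariate in VNS20_2w (0.744%), VNS20_4w (0.322%) or VNS10_1w (1.41%) against AB_Implant, in AB_Implant against AB (0.446%) or in AB against Sham (0.0331%). Without the 3 steepest libraries and with the covariate, Rps2, VNS20_1w against AB_Implant, was at -0.81 (edgeR adjusted p = 0.0624), and neither gene was called in stimulated against unstimulated banded hearts. In that contrast without the covariate Rpl13 was at -0.11 and Rps2 at -0.05, and without the 3 steepest libraries they turned to 0.20 and 0.23, so the direction depends on the fit. In VNS20_1w neither passed without the covariate: Rpl13 was at -0.81 ± 0.48 SE and Rps2 at -0.47 ± 0.42 SE in VNS20_1w against AB_Implant (edgeR adjusted p = 0.71 and 0.911).

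In CPM, Rps2 had 510, 263 and 778 in VNS20_1w, against 764, 833 and 548 in AB_Implant. Rpl13 had 224, 80.8 and 296 CPM in VNS20_1w, against 371, 383 and 302 CPM in AB_Implant. Rpl13 was therefore lower in every VNS20_1w heart than in any AB_Implant heart, although the family as a whole was higher in 2 of these 3 hearts, and Rps2 overlapped. On the CPM scale, 6.67% of all genes were lower in every VNS20_1w heart than in any AB_Implant heart. Set against the mean of the other members in the same library, the separation was complete for both Rps2 and Rpl13. These 2 genes were picked by their calls in the same hearts. The share of members or of all genes that separate on this relative scale was not computed, so the separation is a description.

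Relative to the other members, Rps2 stood at -0.65, -0.49 and -0.52 in VNS20_1w and at 0.13, 0.21 and -0.06 in AB_Implant (log2, centred over 21 libraries). Rpl13 stood at -0.74, -1.10 and -0.83 in VNS20_1w and at 0.18, 0.19 and 0.18 in AB_Implant. VNS20_2w was mixed, with -0.47, -0.05 and -0.39 for Rps2 and -0.70, 0.19 and -0.15 for Rpl13. In VNS20_4w, VNS10_1w, AB and Sham all hearts were above 0 for both genes, between 0.02 and 0.46 for Rps2 and between 0.07 and 0.63 for Rpl13. VNS10_1w, which began in the same week with sessions of 10 min, lay at 0.08 to 0.17 for Rps2 and 0.17 to 0.21 for Rpl13; its difference from VNS20_1w was not tested.

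**Figure D4:**
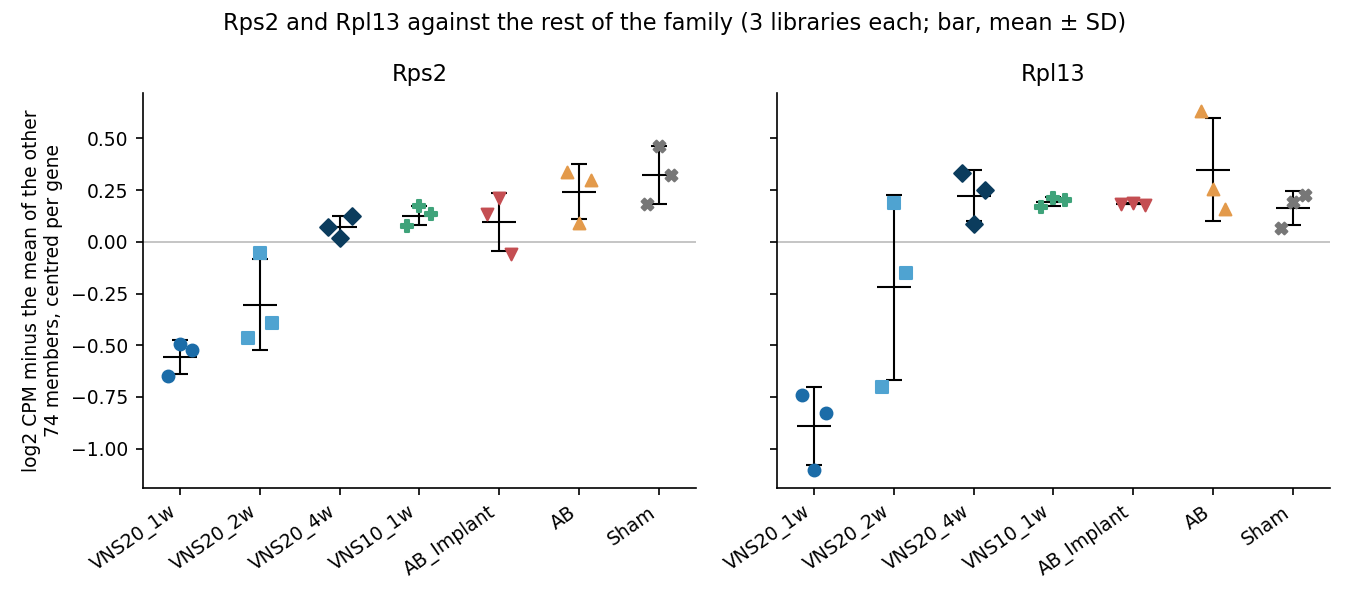
Log2 CPM of Rps2 (left) and Rpl13 (right) minus the mean of the other 74 tested members in the same library, centred per gene, by group; bars are the mean ± SD of 3 libraries. The VNS20_1w points lie lowest, at -0.65 to -0.49 for Rps2 and -1.10 to -0.74 for Rpl13, and the VNS20_4w, VNS10_1w, AB and Sham points lie above 0.

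Both genes are GC-rich members without being the extremes. The transcript of Rpl13 has a GC content of 57.1% and ranks 7 of 75 from the top, and that of Rps2 has 55.9% and ranks 13; Rpl3l ranks 12 with 56.1% and stood at -0.04, 0.59 and -0.12 in VNS20_1w on the same relative scale. The part of GC content was not tested for single members. Rps2 lies at chr17:24718116-24721929 and Rpl13 at chr8:123102350-123105244 (both GRCm38, plus strand).

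The muscle paralog Rpl3l followed the rest of the family less closely than any member but Rpl7a. The first 60 coding bases of Rpl3l and Rpl3 (GENCODE M21, GRCm38) show how far the reads of this pair can be told apart, with capitals at the 13 bases that differ.
Rpl3l (chr17:24727820-24736143, plus strand): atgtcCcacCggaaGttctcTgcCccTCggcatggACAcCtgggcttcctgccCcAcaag
Rpl3 (chr15:80077791-80091868, minus strand): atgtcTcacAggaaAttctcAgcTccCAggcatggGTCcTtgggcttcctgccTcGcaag

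Over the whole coding sequence the pair was identical at 73.2% of aligned bases, with no shared run longer than 22 bases. In stimulated hearts Rpl3l had 228, 163 and 302 CPM in VNS20_1w, 176, 342 and 237 CPM in VNS20_2w, 211, 243 and 314 CPM in VNS20_4w, and 317, 143 and 239 CPM in VNS10_1w. It had 140, 206 and 87.4 CPM in AB_Implant, against 296, 261 and 201 CPM in AB and 233, 293 and 192 CPM in Sham. AB_Implant replicate 3 and replicate 1 were the lowest of all 21. The log2 fold change was -0.81 ± 0.34 for AB_Implant against AB and -0.73 ± 0.34 for AB_Implant against Sham (SE; edgeR adjusted p = 0.519 and 0.503). With the length slope as a covariate, Rpl3l was called lower in AB_Implant against Sham (-0.77 ± 0.21 SE, edgeR adjusted p = 0.0358; 1 of 75 members against 6.19% of all genes), and in the other contrasts it was not; without the 3 steepest libraries this call was lost (Rpl3l, AB_Implant against Sham: -0.79, edgeR adjusted p = 0.0574).

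The ratio of Rpl3l to Rpl3 is free of library size and nearly free of length, as the main transcripts have 1375 and 1351 bases, and it had a correlation of 0.10 with the length slope. On the log2 scale it averaged 0.32 ± 0.17 in VNS20_1w, 0.33 ± 0.46 in VNS20_2w, 0.05 ± 0.50 in VNS20_4w and 0.49 ± 0.21 in VNS10_1w. It averaged -0.56 ± 0.75 in AB_Implant, 0.38 ± 0.19 in AB and 0.70 ± 0.58 in Sham (SD, n = 3 each). Single hearts ranged from -1.26 in AB_Implant replicate 3 to 1.20 in Sham replicate 1. Rpl3 itself had 209 CPM in the former and 101 CPM in the latter, so both genes enter these extremes.

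The difference between stimulated and unstimulated banded hearts was 0.39 (12 against 6; p = 0.132, two-sided exact permutation test over 18564 arrangements), and that between unstimulated banded and Sham hearts was -0.79 (6 against 3; p = 0.143, 84 arrangements, exact). Neither passed, and the 2 comparisons share the 6 unstimulated banded hearts. Leaving out AB replicate 1 brought the exact p of the first to 0.0488 with a difference of 0.52, and leaving out AB_Implant replicate 3 brought it to 0.471 with a difference of 0.16.

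Across the 21 hearts the ratio was low where transcripts of cardiac stress were high, though not inside every group. This relation was computed after the values had been seen, for 5 markers. Its permutations shuffled hearts freely across groups, so differences between groups enter the p values, which are given as a description. With log2 Nppa, the atrial natriuretic peptide gene that ventricles re-express under load, it had r = -0.84 (Spearman -0.79; permutation p = 1e-05, the smallest that 100000 permutations can give; Benjamini-Hochberg adjusted p = 5e-05; n = 21). Without the 2 hearts farthest from the median of Nppa, Sham replicate 2 and VNS20_4w replicate 1, r was -0.83. For deviations from group means r was -0.76, yet within VNS10_1w the ratio rose with Nppa. There it was 0.26 at 417 CPM, 0.55 at 478 CPM and 0.66 at 543 CPM. Among the 12 stimulated hearts alone r was -0.86 (Spearman -0.65, permutation p = 0.00032).

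The other markers gave the same sign. With Nppb, the gene of the B-type peptide, r was -0.77, with Acta1, the skeletal actin of the fetal ventricle, -0.74, and with Postn, which encodes periostin of activated fibroblasts, -0.82 (Benjamini-Hochberg adjusted permutation p = 5e-05, 6.25e-05 and 5e-05). Without the 2 hearts farthest from the median of Postn, both AB_Implant, r for Postn was -0.61. With Myh7, the slow myosin heavy chain, r was -0.55 and Spearman -0.40 (permutation p = 0.01 and 0.0744). Without the 2 hearts farthest from each marker's own median, r was -0.68 for Nppb, -0.65 for Acta1 and -0.55 for Myh7. Nppa lay between 232 and 888 CPM in VNS20_1w, 276 and 2482 CPM in VNS20_2w, 953 and 5499 CPM in VNS20_4w, 417 and 543 CPM in VNS10_1w, 1319 and 5398 CPM in AB_Implant, 398 and 1489 CPM in AB, and 106 and 347 CPM in Sham.

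**Figure D5:**
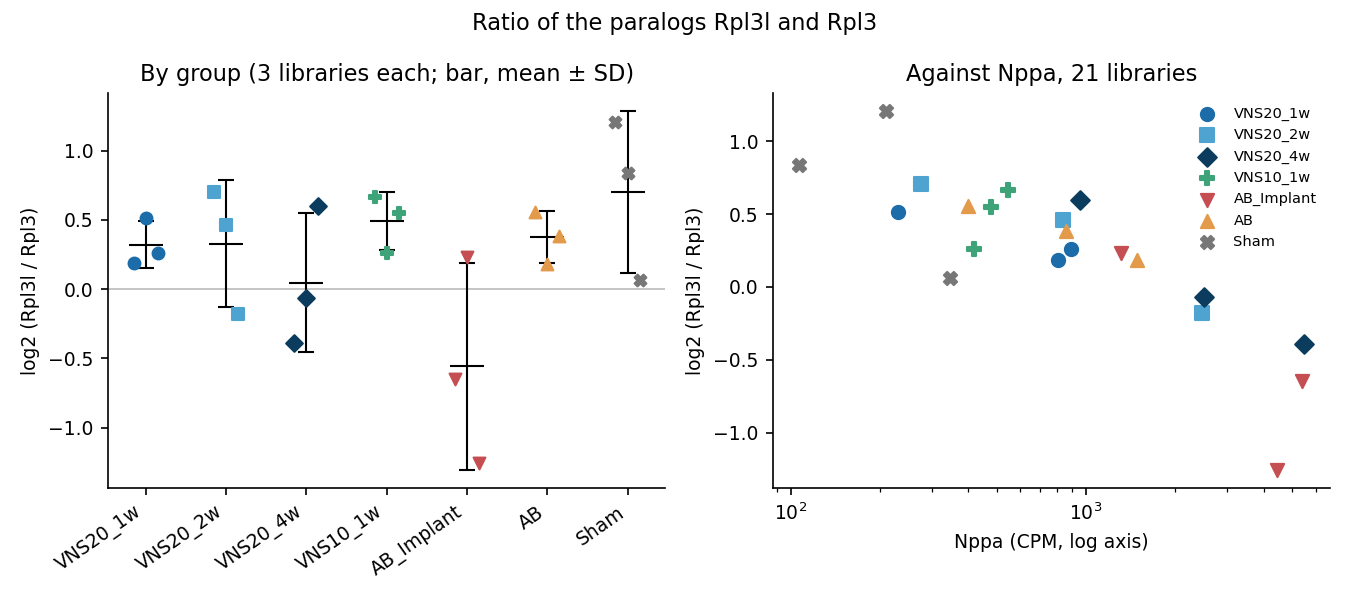
Left, log2 ratio of Rpl3l to Rpl3 counts in each library by group, with mean ± SD of 3 libraries; right, the same ratio against Nppa in CPM on a log axis, 1 point per library. The ratio runs from about 1.20 in a Sham heart to -1.26 in an AB_Implant heart and falls with Nppa over the 21 hearts (r = -0.84 with log2 Nppa).

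Of the other paralogs, Rps27l, which in mouse and human cells is a target of p53, was expressed at 82.2 CPM on average and Rps27 at 111 CPM. The log2 ratio of Rps27l to Rps27 lay between -1.82 and 0.47. Its group means were -0.11 ± 0.55 in VNS20_1w, -0.27 ± 0.43 in VNS20_2w, -0.48 ± 0.20 in VNS20_4w, -0.36 ± 0.25 in VNS10_1w, -0.25 ± 0.31 in AB_Implant, -0.83 ± 0.87 in AB and -0.48 ± 0.10 in Sham (SD, n = 3 each), so the groups overlapped. The AB mean rests on AB replicate 1 at -1.82, as the other AB hearts were at -0.49 and -0.18. Rpl10l, the testis paralog of Rpl10, was at 0 in all 21 libraries, and Rpl39l, a paralog of Rpl39 best known from testis, did not exceed 0.844 CPM. Rpl10 and Rpl39 themselves averaged 318 and 93.1 CPM.

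AB replicate 1 differed from the other 20 libraries in which members it held. Its length slope was 0.01, close to the middle, yet its common level minus the length line was -0.29. The mean of the 37 members with coding sequences shorter than the median of 453 bases minus that of the 36 longer members came to -0.40 on the log2 scale there, against -0.15 to 0.14 in the other libraries. Rplp0 had 879 CPM in AB replicate 1, against 856 and 630 CPM in the other AB hearts, whereas Rpl41 had 153, against 579 and 297 CPM, and Rps27l 20.7, against 119 and 71.1 CPM. Without this library the correlation of common level and slope was -0.99. The median log2 fold change of the family was then -0.38 in AB_Implant against AB, 0.42 in AB against Sham and 0.19 in stimulated against unstimulated banded hearts, with 0 members called.

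Rpl21 and Rpl7a, both of the large subunit, had courses of their own in several hearts. Rpl21 had 94.5 CPM in VNS20_2w replicate 2 and 11.02 CPM in VNS20_1w replicate 2, and relative to the other members it stood above 0.6 in AB replicate 1, AB_Implant replicates 2 and 3, VNS20_2w replicate 2 and VNS10_1w replicate 1. Rpl7a had 166 CPM in VNS20_4w replicate 1 and 27.5 CPM in Sham replicate 1, and relative to the other members it ran from -1.15 in VNS10_1w replicate 3 to 0.88 in AB_Implant replicate 1. The groups overlapped: Rpl21 averaged 0.37 ± 0.65 in AB_Implant and -0.56 ± 0.23 in Sham, and Rpl7a 0.30 ± 0.54 in AB_Implant and -0.28 ± 0.66 in Sham on the relative scale (SD, n = 3 each). Ribosomal proteins have many processed copies in the mouse genome, and the counts give no way to see how reads shared with such copies were assigned; the 8 rows that carry names of ribosomal protein pseudogenes held counts equal to 0.240% to 0.410% of the members' counts.

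Rps10 and Rpl13a, essential proteins of the small and the large subunit, are listed at 0 to 12 and 0 to 15 counts, which is 1.18 and 1.16 CPM at most. In GENCODE M21, 53.6% of the Rps10 transcript lies on the same strand inside the readthrough gene RPS10-NUDT3, and 59.3% of the Rpl13a transcript inside Gm45713, and both of those rows are at 0 in all libraries. Rpl24 shares 71.5% of its transcript with Gm28037 and was nevertheless counted and tested. The part of the overlap in the low counts of Rps10 and Rpl13a was not tested, and these counts give no level for the 2 genes.

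The rest of the translation machinery was read from lists of genes. Without the slope as a covariate, none of the 8 lists had a gene called in VNS20_4w against AB_Implant or in stimulated against unstimulated banded hearts, where 0.322% and 0.438% of all genes were called, so these counts of 0 are near the background. Over the 21 libraries, the list most like the family was that of the 78 mitochondrial ribosomal proteins, which have a median length of 1302 bases, with a correlation of -0.99 with the slope and 0.99 with the common level. The 79 nuclear respiratory chain subunits (median 838 bases) had -0.95 and 0.96. The 8 ribosomal proteins named outside the symbol rule, such as Fau and Rack1 (median 1126.5 bases), had -0.92 and 0.95. The 20 elongation factors and other TOP transcripts (median 1928.5 bases) had -0.95 and 0.97.

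The lists of longer transcripts followed the slope less closely or the other way. The 29 initiation factors (median 2367 bases) had a correlation of -0.63 with the slope, and the 45 ribosome assembly factors (2613 bases) -0.54. The 24 genes of RNA polymerase I and Myc (2075.5 bases) had -0.41, and the 36 genes of the mTORC1 pathway with Larp1 (2645 bases) 0.91. Among these lists the median length did not order the correlations. In VNS20_4w against AB_Implant the median log2 fold change was 0.62 for the mitochondrial ribosomal proteins (76 of 78 positive), 0.82 for the respiratory chain subunits (77 of 79), 0.29 for the elongation factors (17 of 20) and 0.05 for the assembly factors (26 of 45). With the slope as a covariate these medians were -0.02, 0.06, -0.09 and -0.18. The slopes of VNS20_4w and AB_Implant did not overlap, so this fit cannot tell the group from the slope.

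Single genes outside the family most like the common level, by Pearson correlation over 21 libraries, were Dynlrb1, a dynein light chain, Fau, which encodes a ribosomal protein of the small subunit fused to a ubiquitin-like protein, Rack1, a scaffold on the small subunit, Timm13, a mitochondrial import chaperone, and Psmb6, a proteasome subunit. Their correlations lay between 0.984 and 0.986, and 38 of 12025 other genes reached the members' median of 0.97. These 5 transcripts have 684 to 1447 bases.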

How the data were processed

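Polyadenylated RNA of 21 left ventricles was sequenced, and the authors deposited 1 table of counts per gene. Although the table is named as normalized, its values are whole numbers with unequal totals, so they were read as the deposited raw counts. Per the submitters' processing notes, FastQC 0.11.9, cutadapt 1.11, HISAT2 2.1.0, featureCounts 1.6.0 and edgeR 3.32.1 in R 4.0.3 were named with GRCm38; their settings, including strand, are not given in the sources used here.

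Symbols were found for 22041 of 22136 genes and coordinates for 22118 in GENCODE M21. Genes with at least 1 CPM of the unscaled library total in at least 3 libraries (12100) were tested. They entered the quasi-likelihood test of edgeR 4.0.16 (R 4.3.3, TMM factors), with all 7 groups in 1 model and no covariate. Benjamini-Hochberg adjustment ran over all tested genes, with calls at an adjusted p under 0.05. Log2 CPM used a prior count of 0.5. Alternatives were DESeq2 1.42.0 and its size factors, other filters, the length slope as a covariate, mitochondrial genes left out, libraries left out and the replicate number as a block.

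The members, lists and tests were chosen with earlier results of these data known. Members were named for the highest and lowest level per length, for being paralogs, for a call or the smallest p in a contrast, for the highest and lowest correlation with the family, or for a known special role; 1 result that this rule would name is not reported here. Hypertrophy markers beside Rpl3l and the relative levels of Rps2 and Rpl13 were added after their values were seen. Correlations with marker genes used 100000 permutations of the hearts, without regard to group (numpy 2.4.6). The test was first tried on simulated counts. Replicates of a group differed by more than sampling noise (chi-square per degree of freedom 13.9 to 174).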

Additional observations from a re-analysis of the deposited data

Results flagged for a closer look

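In AB replicate 1 the log2 ratio of Rps27l to Rps27 was -1.82, far from the other 5 unstimulated banded hearts. Its gap to the nearest of them was 0.689 of the whole range, above the critical value of Dixon's test at the 95% level for 6 values. Chance flags about 1 in 20 such groups, and 4 quantities were looked at in this way. The same library held relatively few counts of short members, as described for Rpl41.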

How the results depend on the processing

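The correlation of the common level with the length slope held its size in the alternatives run, with -0.98 for merged exon lengths, DESeq2 size factors and a mean of at least 5 CPM, -0.97 without mitochondrial genes or without the 3 steepest libraries, -0.99 for coding lengths and for a line on length and GC content (both of these added after seeing the data), and -0.99 to -0.98 when each library was left out. The count of members called was 0 under DESeq2, its size factors, both other filters, without mitochondrial genes, with the replicate block, and in every fit that left out 1 library. The share of all genes called ran over the 9 tests from 0.0909% to 4.47% under DESeq2, 0% to 0.521% with its size factors, 0% to 0.522% without a filter, 0% to 0.509% at a mean of 5 CPM, 0% to 0.57% without mitochondrial genes and 0% to 0.388% with the replicate block, so most of these counts of 0 are near the background. With the length slope as a covariate it was 1 in AB_Implant against Sham, 2 in VNS20_1w against AB_Implant, 2 in stimulated against unstimulated banded hearts and 2 in the F test. Without the 3 steepest libraries it was 41 in VNS20_2w and 56 in VNS20_4w against AB_Implant, 59 in stimulated against unstimulated banded hearts and 31 in the F test. With both changes, an alternative added after seeing the data, it was 1 in VNS20_1w against AB_Implant and 1 in the F test, Rpl13 in each; Rps2 was then at -0.81 with an edgeR adjusted p of 0.0624 in VNS20_1w against AB_Implant. The cause was not tested. Rpl3l in AB against Sham was 0.08 and turned to -0.17 with the slope as a covariate, to -0.25 with both changes, and ranged from -0.0575 to 0.248 when each library was left out. In stimulated against unstimulated banded hearts, Rps2 was -0.05 and Rpl13 -0.11; they turned to 0.23 and 0.20 without the 3 steepest libraries and ranged from -0.16 to 0.0519 and from -0.234 to 0.0104 when each library was left out. The differences in the Rpl3l to Rpl3 ratio ranged from 0.16 to 0.52 (stimulated against unstimulated banded) and from -1.11 to -0.54 (unstimulated banded against Sham), with exact permutation p of 0.0488 to 0.471 and 0.0714 to 0.393. The replicate number was not taken to pair the hearts. Deviations were correlated over 0.1 in 17 of 63 pairs of the same number (median -0.05) and in 46 of 126 pairs of other numbers (median 0.02). Such a count showed no sign of pairing but cannot establish that there is none. The fit with the replicate block changed no call of a member. The median SE of a member was about 0.40 on the log2 scale in contrasts of 3 against 3 libraries, so a count of 0 does not show that members were equal between groups.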
